A study of Irpex lacteus with 14 samples.

Results

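The transcriptome of Irpex lacteus growing on crystalline cellulose was set against that of the same fungus growing on maltose, over the 967 genes of the deposited table, out of 977 different gene IDs, that reached a normalized count of 10 in at least 2 of the 5 substrates measured. Irpex lacteus is a white-rot basidiomycete of the order Polyporales, and all cultures were of strain CCBAS Fr. 238 617/93. The cellulose group held 3 libraries from mycelium grown for 3 days at 30 °C in shaken cultures of 100 ml with 15 g per litre of Avicel, a microcrystalline cellulose, and 2.5 g per litre of maltose. The maltose group held 3 libraries grown for the same time in the same mineral medium with 20 g per litre of maltose and no solid. Both media shared ammonium tartrate as the nitrogen source, yeast extract and thiamin. The other libraries of the series (wheat straw with 3, aspen with 3, pine with 2) are used below only to place the levels seen on cellulose. Each of these materials was supplied ground at 15 g per litre, straw and pine beside 2.5 g per litre of maltose and aspen beside a maltose level that cannot be read in the label. The cellulose and maltose media differ in free sugar as well as in the solid, and the effects of the 2 cannot be told apart.

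Cellulose is a polymer of glucose that fungi cannot take up whole. White-rot fungi secrete enzymes that act on it outside the hypha: cellobiohydrolases work along the chains from their ends, endoglucanases cut within them, lytic polysaccharide monooxygenases break the crystalline surface by oxidation, and beta-glucosidases split the soluble products to glucose. Maltose is a soluble disaccharide of glucose that is split by alpha-glucosidases. In many fungi that have been studied, genes for cellulose-degrading enzymes are induced by soluble products of cellulose and held low by readily used sugars. These are statements of background. The files identify each gene by a number of the MycoCosm portal only and do not pair the numbers with names, so no gene below is given a name, a position or a role, the sample's identity could not be checked against marker genes, and the number of cellulases among the genes that differed is not known here. For the same reason only 2 IDs are printed for each direction, and the other genes are described as groups.

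Each gene had 1 normalized log2 read count per substrate, which stands for all libraries of that substrate (3 each on cellulose and maltose) without a spread between them. No standard deviation, interval or p-value can therefore be given for any gene, library depth is unknown, and it is not known which differences exceed the variation between cultures. "Higher" and "lower" below mean that the cellulose value lay at least 1 above or below the maltose value on the log2 scale, which is 2-fold. Nothing states how the table's genes were picked, so percentages are of this table and not of the genome. The 967 kept genes had a median level of 8.52 on cellulose and 8.22 on maltose. The median difference per gene was 0.03. These levels are read counts that are not divided by gene length, so they are compared between substrates for 1 gene, and ranks or sums over genes weight long genes more.

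Most genes stood at nearly the same level on cellulose and on maltose, and on the deposited scaling those that did not were mainly higher on cellulose. Of the 967 genes, 809 (83.7%) lay within 2-fold and 590 (61.0%) within 0.5 on the log2 scale. There were 121 higher genes (12.5%) and 37 lower genes (3.83%). At 4-fold the counts were 55 (5.69%) and 3 (0.31%). The 2-fold counts came to 95 higher and 85 lower after quantile normalization. The size of the excess of higher genes at that mark thus depends on the scaling, as set out below. The sign of the difference was more evenly divided, with 509 genes above 0 and 458 below.

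The middle of the distribution was close to symmetric and its upper end was not. The lower and upper quartiles of the difference were -0.32 and 0.46, and the 10th and 90th percentiles were -0.66 and 1.24. The 1st percentile was -1.52, whereas the 99th was 6.40. No gene was as much as 8-fold lower on cellulose, while 37 genes were at least 8-fold higher, 26 at least 16-fold and 19 at least 32-fold. The most negative difference in the table was -2.35 and the most positive was 9.65.

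**Figure D1:**
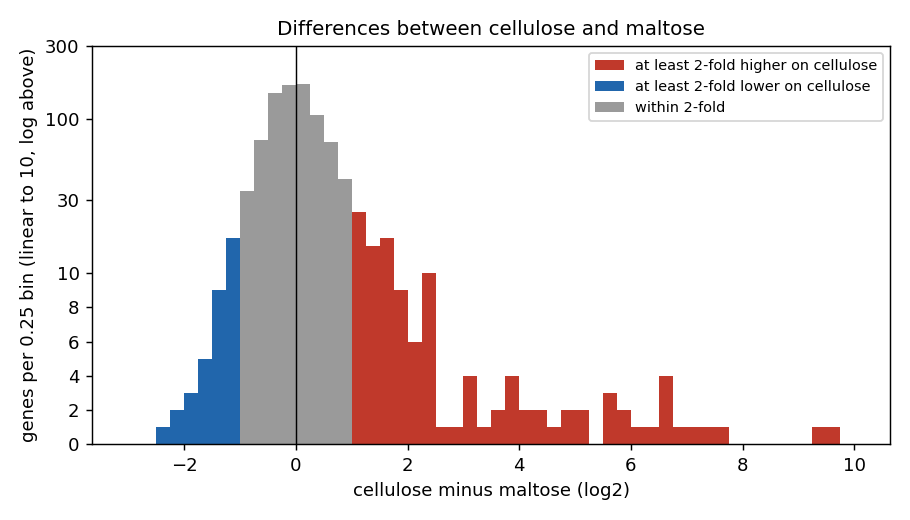
Histogram of the cellulose minus maltose difference (log2, x axis) over 967 genes in bins of 0.25; the y axis counts genes and is linear up to 10 and logarithmic above. Red bars are the 121 genes at least 2-fold higher on cellulose, blue bars the 37 at least 2-fold lower and grey bars the 809 genes between, and the tail on the higher side reaches 9.65 while the lower side ends at -2.35.

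The number of higher and lower genes depended on how the columns were scaled. The column medians differed by 0.30, although the median difference per gene was 0.03 and the 809 genes within 2-fold had medians of 8.38 on cellulose and 8.40 on maltose. Quantile normalization, which gave the counts above, forces all 5 columns to one distribution. With each column centred on its own median, which shifts cellulose by 0.30 relative to maltose, there were 91 higher and 86 lower genes. Scaling by the median of the per-gene ratios shifted cellulose by 0.10 and gave 113 and 51. The share of higher genes among those past 2-fold was 76.6% as deposited, 52.8% and 51.4% under the first pair of scalings and 68.9% under the last. The strongly higher genes depended on it less: at 4-fold the number of higher genes lay between 48 and 52 under these scalings, against 55 as deposited, and that of lower genes between 4 and 7, against 3. Of the 121 higher genes, 90 also passed 2-fold under every one of these 3 scalings and with 8 added to the linear values, and 31 of the 37 lower genes did so.

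The cut at 2-fold fell in a dense part of the distribution. On each side, 20 genes had a difference between 0.9 and 1.1 in size. The least of the higher genes stood at 1.00, with the next gene below at 0.995, and the least of the lower genes at -1.03, with the next at -0.99. The filter on low values removed 10 genes, whose cellulose values ran between 0.60 and 3.21 and whose maltose values ran between 1.17 and 3.59. The gene just inside the filter had a 2nd highest value of 3.35 over the substrates, and the gene just outside had 3.30.

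The largest difference belonged to a gene that was close to the bottom of the scale on maltose, which was not so for all the large differences described below. Gene 1486573 stood at 10.02 on cellulose and 0.37 on maltose. That difference of 9.65 became 6.82 when 8 was added to the linear values, which damps values near the floor. On maltose it ranked 966 of 967 by read count, and on cellulose 294. It reached 12.58 on wheat straw but 7.11 with aspen and 7.45 with pine, so straw held the highest of its 5 values and cellulose the next.

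Gene 1437720 had 10.09 on cellulose and 0.80 on maltose, a difference of 9.29, or 6.82 with 8 added. It ranked 288 on cellulose and 964 on maltose. Its level on wheat straw, 10.13, was nearly that on cellulose, and it had 8.58 on aspen and 6.53 on pine. In both genes the 2 woods lay between maltose and cellulose.

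The next 8 genes in the order of positive differences were higher by 6.52 to 7.69. Their levels ran between 7.99 and 13.92 on cellulose, with a median of 11.25, and between 0.30 and 7.17 on maltose, with a median of 4.63. The 20 genes after them, ranked 11 to 30, were higher by 3.76 to 6.33, with median levels of 10.62 on cellulose and 5.80 on maltose. Among these 30 genes, the highest maltose level was 7.31, and 19 reached at least 10 on cellulose where none did on maltose. Every one of the 30 therefore stood below the median gene of the maltose column, and most stood above the median gene of the cellulose column.

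**Figure D2:**
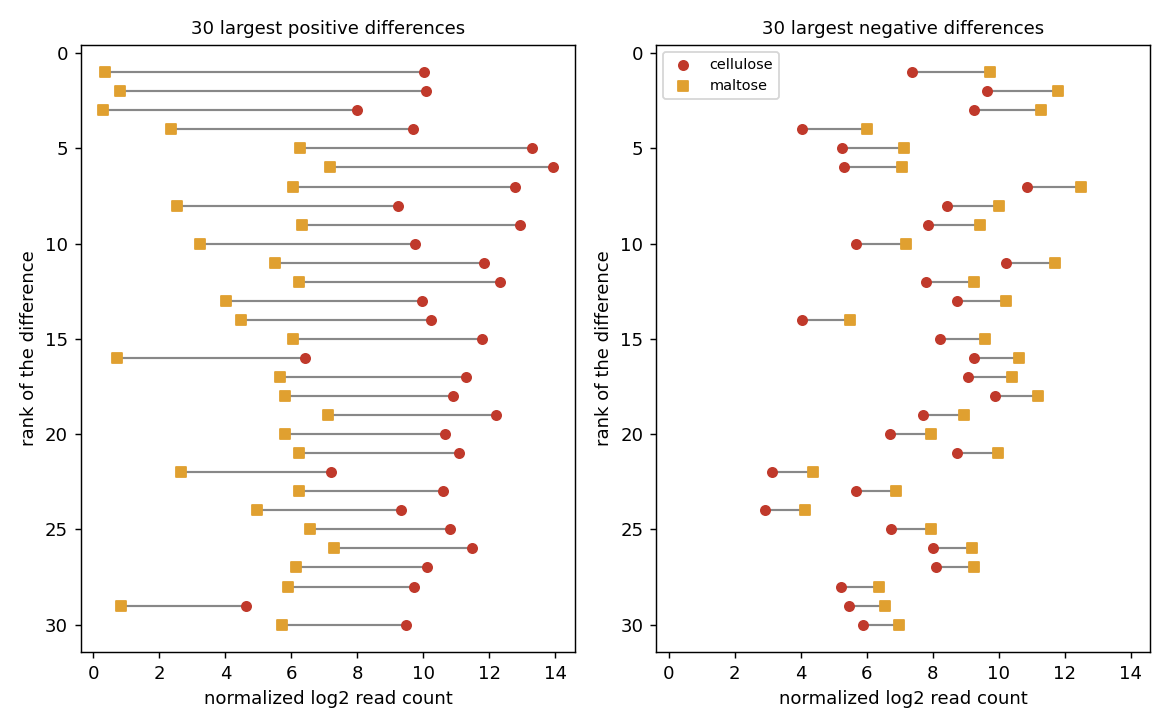
Levels (normalized log2 read count, x axis) of the 30 genes with the largest positive differences (left) and the 30 with the largest negative differences (right), ordered downward by the size of the difference. Red circles are cellulose and orange squares are maltose, 1 value per substrate; the lines on the left are 3.76 to 9.65 long and none on the right exceeds 2.35.

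Grouping the 121 higher genes by their maltose level separated genes that were barely measured there from genes already in use. For 10 of them the normalized count on maltose was under 10, and their median level was 8.61 on cellulose and 1.60 on maltose, with a median difference of 6.62. A further 93 had a count between 10 and 1000 on maltose, with medians of 9.73 on cellulose and 6.28 on maltose and a median difference of 1.81. The remaining 18 had a count of 1000 or more on maltose, with medians of 12.05 on cellulose and 10.48 on maltose and a median difference of 1.36. The largest difference among these 18 was 2.48. Since the maltose value enters the difference, low maltose values favour large differences by construction.

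Differences past 2-fold were found at every level of expression. When genes were ranked by the mean of their cellulose and maltose values and divided into 5 groups of near equal size, the higher genes made up 12.4%, 13.5%, 10.4%, 17.6% and 8.76% of the groups, lowest level first. The lower genes made up 4.64%, 4.15%, 4.15%, 4.15% and 2.06%. These shares hold for the deposited scaling, and the groups were not counted under the other scalings. The group with the highest levels, with means of 10.64 and above, had the narrowest middle, its quartiles lying at -0.15 and 0.40. It held 3 of the 55 genes that were 4-fold higher, and the group below it held 18. A low maltose value widens the difference and also lowers the mean, which by construction favours a lower group for such genes.

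**Figure D3:**
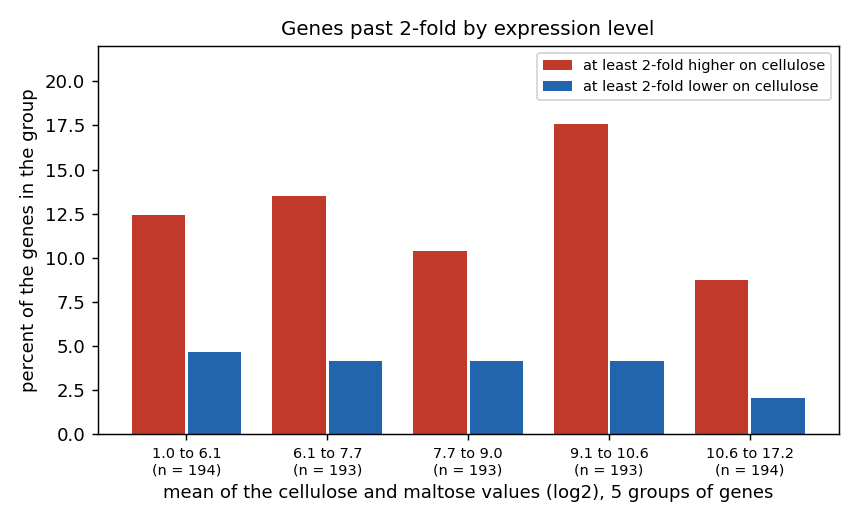
Percent of genes (y axis) at least 2-fold higher (red) or lower (blue) on cellulose than on maltose, in 5 groups of 193 or 194 genes ordered by the mean of both log2 values (x axis, range of the mean under each pair of bars). On the deposited scaling, higher genes are the larger share in every group, at 8.76% to 17.6%, against 2.06% to 4.64% for lower genes.

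The genes with the most reads on cellulose stood at similar levels on maltose. Gene 1596132 had the highest value in both columns, 17.31 on cellulose and 17.16 on maltose, and held 9.04% of the summed linear values on cellulose and 9.76% on maltose. Its difference of 0.15 was -0.15 after centring on the median and 0.00 after quantile normalization. It stood lower on each plant material, at 11.55 on wheat straw, 14.22 with aspen and 11.96 with pine. The 10 genes with the highest cellulose values differed from maltose by -0.17 to 0.87 and held 28.5% of the cellulose sum and 28.2% of the maltose sum. Of the 100 genes with the highest cellulose values, 16 were higher on cellulose and 1 was lower, and of the 100 with the highest maltose values 2 were higher and 4 lower, where 12.5% and 3.83% of all genes were. Ranking by either column favours calls in that column's direction.

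**Figure D4:**
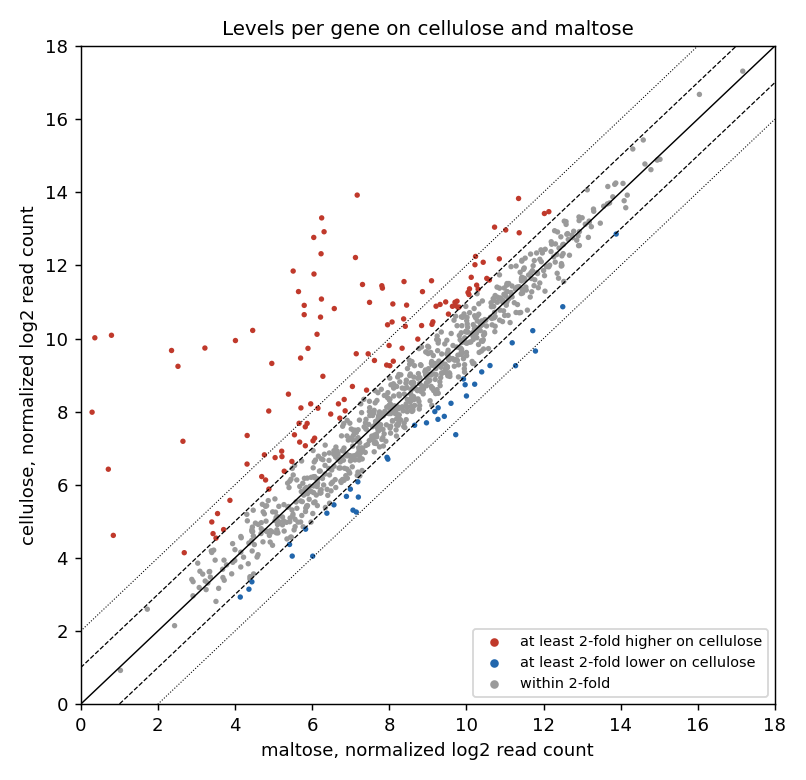
Level of each of 967 genes on cellulose (y axis) against its level on maltose (x axis), both as normalized log2 read counts. The solid line marks equal values, dashed lines 2-fold and dotted lines 4-fold. Of the 121 red genes, 66 lie between the upper dashed and dotted lines and 55 lie above both. The red genes farthest above the lines have maltose levels below about 8. Of the 37 blue genes, 3 lie below the lower dotted line and the others lie between the lower dashed and dotted lines.

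The higher genes made up a larger part of the measured reads on cellulose. The linear values of the 121 genes summed to 13.7% of the cellulose column and 3.47% of the maltose column. The 37 lower genes held 1.01% on cellulose and 3.09% on maltose, and the 809 genes within 2-fold held 85.3% and 93.4%. The choice of the sets by their difference fixes the direction of these shares, and only their size is a measurement. Of the gain of the higher genes in linear units, 43.0% belonged to the 10 genes with the largest gain, whose cellulose levels lay between 12.32 and 13.92. The sum over all 967 genes was 1.19 times as large on cellulose as on maltose.

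The levels of the higher genes on the plant materials entered their choice only through the filter on low values, which left out 1 gene that would otherwise have been counted as higher. The choice favours high cellulose and low maltose values. The median level of the 121 genes was 10.09 on cellulose and 9.99 on wheat straw, 9.11 with aspen, 9.08 with pine and 6.68 on maltose. Over all 967 genes the medians were 8.61 for straw, 8.74 for aspen and 8.89 for pine, beside 8.52 for cellulose and 8.22 for maltose. Among all genes pine thus had the highest median, whereas among the higher genes straw lay above both woods. The highest of a gene's 5 values was on straw for 48 of the 121 genes, on cellulose for 47, on pine for 17 and on aspen for 9. As shares these are 39.7% for straw, 38.8% for cellulose, 14% for pine and 7.44% for aspen, where over all genes they were 21.7%, 13.8%, 33.7% and 12.4% for straw, cellulose, pine and aspen. Choosing genes with high cellulose values raises the cellulose share by construction.

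The contrast between straw and the woods uses neither the cellulose nor the maltose column. Of the 121 genes, 54 (44.6%) exceeded their aspen level by 2-fold or more on straw, and 17 were lower, where 15.4% of all genes were higher and 17.2% lower. Against pine, 47 (38.8%) were higher on straw and 18 (14.9%) lower, where 8.69% of all genes were higher and 22% lower. The median difference of straw minus aspen was 0.76 in the 121 genes and 0.01 over all genes, and that of straw minus pine was 0.50 and -0.34. The number of the 121 genes higher on straw stayed between 47 and 56 against aspen and between 47 and 53 against pine under the 3 other scalings and as deposited. Over all genes the share higher on straw under those 3 scalings was 14.5% to 18.2% against aspen and 12.2% to 13.2% against pine.

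The shares above the woods were larger still in the 55 genes that were 4-fold higher on cellulose. On straw, 40 of these (72.7%) stood 2-fold or more above aspen and 3 below, where 15.4% and 17.2% of all genes did. Against pine, 39 (70.9%) stood above and 4 below, where 8.69% and 22% of all genes did. Under the 3 other scalings the number above was 35 to 41 against aspen and 39 to 43 against pine. The median levels of the 55 genes were 10.45 on cellulose, 11.11 on straw, 9.76 on aspen, 9.11 on pine and 6.05 on maltose. Between the woods, 5 of the 55 (9.09%) were higher with aspen than with pine and 6 (10.9%) were lower, where 7.03% and 20.1% of all genes were. That balance turned with the scaling: the counts were 10 (18.2%) and 2 (3.64%) after quantile normalization and by the median of ratios. After centring they were 7 (12.7%) and 4 (7.27%). The shares of all genes were 12.3% and 10.8% after quantile normalization and 12.5% and 13.0% by the median of ratios. After centring those shares were 9.2% and 16.2%. Set against all genes, the 55 were more often higher with aspen and less often lower under each scaling. In the 121 genes the median difference of aspen minus pine was -0.05 as deposited and 0.19 after quantile normalization. It was 0.10 after centring and 0.24 by the median of ratios, so its sign depended on the scaling. Over all genes the median difference was -0.23, 0.00, -0.09 and 0.06 under the same scalings, each time below that of the 121 genes. In the 55 genes it was 0.21, 0.38, 0.35 and 0.49.

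The 47 higher genes whose highest value was on cellulose had smaller differences from maltose than the 48 whose highest value was on straw. Their median difference was 1.55, against 3.30 in the straw group. The cellulose-topped genes had median levels of 9.98 on cellulose, 8.31 on straw, 8.40 on aspen, 7.85 on pine and 7.93 on maltose. The group medians on the plant materials thus lay near that on maltose, which does not hold for each gene. The quartiles of this group were 6.28 and 10.35 on straw, against 5.25 and 9.23 on maltose. The straw-topped genes had 10.30 on cellulose, 11.75 on straw, 9.91 on aspen, 9.56 on pine and 6.06 on maltose. Sorting genes by their highest value puts the other substrates below cellulose in the cellulose-topped group and below straw in the straw-topped group by construction. In 14 genes the cellulose value exceeded each of the other 4 by at least 2-fold on the deposited scaling. No like count is given here under another scaling or for another substrate. These 14 stood between 6.74 and 13.92 on cellulose and were above maltose by 1.24 to 6.75, with a median of 1.73.

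**Figure D5:**
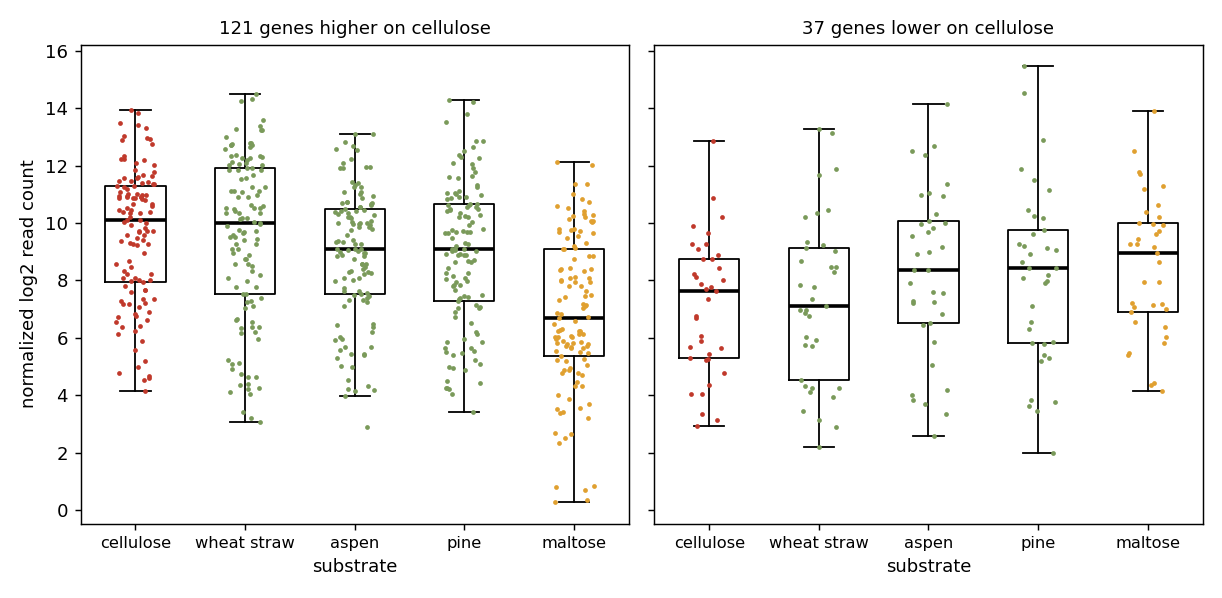
Levels (normalized log2 read count, y axis) of the 121 genes higher (left) and the 37 genes lower (right) on cellulose than on maltose, on each of the 5 substrates (x axis). Each point is 1 gene, boxes span the quartiles with the median as a thick line and whiskers reach the farthest value within 1.5 times the box height; on the left straw has a median of 9.99 and the woods 9.11 and 9.08, and on the right straw has 7.10 and the woods 8.38 and 8.44.

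The 37 lower genes differed from maltose by much less. Their differences ran between -2.35 and -1.03 with a median of -1.27, and their median level was 7.63 on cellulose and 8.97 on maltose. Gene 1277977 showed the largest negative difference, at 7.37 on cellulose and 9.72 on maltose, which is 5.11-fold lower on cellulose. It had 7.10 on straw and 7.90 on pine, near its cellulose level, and 9.16 with aspen, near its maltose level. It ranked 640 on cellulose and 294 on maltose.

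Gene 1437735 followed, at 9.66 on cellulose and 11.79 on maltose, a difference of -2.13. Unlike the first, it was far above its maltose level on the woods, at 14.16 on aspen and 15.45 on pine, with 9.22 on straw. It ranked 333 on cellulose and 90 on maltose. Both lower genes had their lowest value on straw, with cellulose next.

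As a group the lower genes had median levels of 7.10 on straw, 8.38 on aspen and 8.44 on pine, so straw lay below both woods. Of the 37, 17 (45.9%) were at least 2-fold lower on straw than on aspen and 3 (8.11%) were higher, where 17.2% and 15.4% of all genes were. Against pine, 15 (40.5%) were lower on straw and 1 (2.7%) was higher, where 22% and 8.69% of all genes were. The number lower on straw than on pine was 8 (21.6%) with quantile normalization, where 12.5% of all genes were lower, and 10 (27%) both with centring and with the median of ratios, where 14.1% and 13.4% of all genes were. The count against pine thus depended on the scaling. The lowest of a gene's 5 values was on straw for 15 genes (40.5%, against 30.1% of all genes). It was on cellulose for 16 (43.2%, against 15.5%), and the highest was on maltose for 22 (59.5%, against 18.4%), both of which the choice of the genes favours. In 9 genes the cellulose value lay at least 2-fold below each of the other 4, again on the deposited scaling only. These 9 stood between 2.93 and 10.87 on cellulose and between 4.14 and 12.50 on maltose.

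Over the whole table, cellulose, like aspen, held neither extreme often. Cellulose held the highest of the 5 values for 133 genes (13.8%) and the lowest for 150 (15.5%), counts that depend on the column medians. Aspen held them for 12.4% and 15.6%. Of 16 pairs of genes whose ID numbers follow each other, 0 had both members past 2-fold and 5 had 1, where 16.3% of all genes were past it. So few pairs show nothing about neighbouring IDs, and an ID number is not a position in the genome.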

How the data were processed

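Messenger RNA was sequenced in 14 libraries over 5 substrates, of which 6 are in the comparison. The table the authors deposited gives log2 values of normalized reads, 1 for each gene on each substrate (unit per the file headers). Per the submitters' processing notes, the tools included TopHat2, HTSeq and DESeq 1.5, whose roles are not stated. The sources used here do not give the way libraries were combined, the size factors, whether a constant preceded the logarithm, the genome build or the annotation.

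The table held 1000 rows, of which 23 repeated a gene with identical values and were dropped. Genes reaching a normalized count of 10 in 2 of the 5 columns were kept. Differences, counts and sums were computed with Python 3.11.15, numpy 2.4.6 and pandas 2.3.3. The functions were tested on simulated data, where quantile normalization misplaced a few genes at the sparse ends of the range. Named genes are the 2 largest differences in each direction and the gene with the highest cellulose value. The members and lists were chosen with earlier results of these data known. Alternatives changed the filter, the scaling, the added value and the repeated rows.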

Additional observations from a re-analysis of the deposited data

How the results depend on the processing

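With 1 value per substrate, nothing here measures variation between cultures, and leaving out single libraries was not possible. No paired analysis was possible because the columns carry no replicate numbers. The counts of higher genes at 2-fold and 4-fold stayed within 1.5 times their main values under all 8 alternatives, with 91 to 124 and 46 to 58 genes. The lower genes did not: at 2-fold their number was 85 with quantile normalization and 86 with centring on the column median, against 37, and at 4-fold it was 7 and 6, against 3. Both scalings shift cellulose down relative to maltose, which adds lower genes by construction. The 10 higher genes under a count of 10 on maltose became 0 with the filter in all 5 columns, which removes such genes by definition. The share of summed linear values held by the higher genes, on cellulose and on maltose, was 13.4% and 3.43% with that filter, 13.5% and 3.36% with 8 added, 13.3% and 2.76% with quantile normalization, 11.6% and 2.35% with centring, 13.1% and 3.16% with the median of ratios, and 13.6% and 3.4% with repeated rows kept, against 13.7% and 3.47%. The 4 named differences past 2-fold kept their direction and stayed past it in each alternative that kept the gene. The straw and wood contrasts and their scalings were chosen after seeing the data.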
